A study of Mus musculus with 15 samples.

Results

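The Rab genes encode the largest branch of the Ras superfamily of small GTPases. Each Rab protein switches between a GDP-bound form, which can be drawn off into the cytosol, and a GTP-bound form on a membrane, where it recruits effectors that move, tether or fuse vesicles. Exchange factors load GTP and GTPase-activating proteins of the TBC family end the cycle, and different Rabs mark the endoplasmic reticulum, the Golgi apparatus, early, recycling and late endosomes, and secretory vesicles. In neurons the Rab3 proteins sit on synaptic vesicles and Rab5, Rab7 and Rab11 sort endosomes in axons and dendrites. Members were the genes of the deposited table whose symbol is Rab followed by a number and an optional letter and digit, with at least 150 counts in total over the 15 libraries: 54 of the 24498 genes in the table. All 54 were among the 15075 genes tested.

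The pattern alone matched 59 symbols. Below the minimum were Rab42 with 94 counts, Rab25 with 70, Rab44 with 15, Rab17 with 13 and Rab19 with 11, and just above it were Rab38 with 163, Rab39 with 270 and Rab27a with 275. The low totals limit Rab38, Rab39 and Rab27a, of which none passed in either acetate comparison with all libraries.

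RNA was sequenced from primary mouse hippocampal neurons that had been plated and differentiated for 7 days and were then exposed for 24 h. The groups were 5 mM acetate or its neurobasal-medium vehicle, each with 20 µM of an ACSS2 inhibitor or with its DMSO solvent: the 4 libraries of DMSO vehicle, 4 of DMSO acetate, 3 of inhibitor vehicle and 4 of inhibitor acetate. ACSS2 converts acetate to acetyl-CoA, and acetate stands in this study for the product of alcohol breakdown. The sources used here do not give the inhibitor's name or the strain, age and sex of the mice, and nothing states that replicates were separate cultures, so p-values measure only the spread between these samples. Levels are CPM, gene counts scaled to a common library size after TMM, and folds are log2 values from edgeR's quasi-likelihood fit. A gene rose or fell only where its p, adjusted by Benjamini-Hochberg over all 15075 genes, was under 0.05.

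The cultures held neurons and other cells, and the balance of their transcripts moved with acetate. Gene counts were 19688231 to 39234799 per library. Summed neuronal markers were at 4110 to 6260 CPM in vehicle libraries and 7160 to 9070 in acetate libraries. Their mean was 7.82 to 8.27 log2 CPM in vehicle libraries of both arms and 8.43 to 8.63 in acetate libraries, with 10 of 12 higher in each arm. Without inhibitor, summed microglia markers spanned 109 to 534 CPM in vehicle libraries and 13.7 to 28.1 with acetate, and with it 5.83 to 415 and 9.50 to 41.8, and 10 of 10 fell in each arm. Astrocyte markers (5 of 8 fell in each arm), oligodendrocyte markers (7 and 5 of 9), vessel markers (6 and 5 of 9, with 1 higher without inhibitor) and meningeal markers (5 and 4 of 7) also fell. Their summed levels without inhibitor, in vehicle and then acetate libraries, were 4160 to 12100 and 3260 to 4060 CPM for astrocytes, 184 to 457 and 48.8 to 66.8 for vessels and 182 to 780 and 108 to 134 for meninges. With the inhibitor they were 3910 to 13200 and 2910 to 4320, 58.7 to 315 and 39.3 to 56.0, and 68.9 to 671 and 89.1 to 109. The summed oligodendrocyte list did not go lower (284 to 879 and 706 to 991, then 245 to 1090 and 438 to 1100). Its largest gene in each group, Olig1, was at 226 CPM on average in DMSO vehicle and 684 with acetate. The defining oligodendrocyte gene Mog and the endothelial gene Cldn5 were near 0 in each group, at 0.0950 CPM or less on average. The mean of these 5 marker lists, called the non-neuronal score, was 4.86 ± 0.62 log2 CPM (SD, n = 4) without and 2.79 ± 0.05 (n = 4) with acetate in the DMSO arm, and 4.08 ± 1.4 (n = 3) without and 2.66 ± 0.15 (n = 4) with it in the inhibitor arm. DMSO vehicle 1 (3.93) and inhibitor vehicle 2 (2.47, the lowest of the 15) stood apart from the other vehicle libraries (4.72 to 5.23). In such bulk samples fewer cells of a type and less RNA per cell cannot be told apart, and the part of these markers in the Rab results was not tested beyond the fits given beside them.

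Upstream sequences are shown for 5 members that moved the same way in both arms, so that the start of each gene can be seen beside its values. A RefSeq promoter entry was found for 44 members, and Rab2a, Rab4a, Rab7b, Rab18, Rab26, Rab27b, Rab30, Rab36, Rab37 and Rab38 had none. The stretches are those of the 250 bases before the RefSeq start (GRCm38.p6) that also lie before the GENCODE start, written 5′ to 3′ on the gene's own strand. Capitals mark GGGCGG or its reverse complement, the GC box bound by Sp-family factors. The first pair belongs to genes that rose, Rab33a (chrX:48519035-48519284, plus strand) and Rab3b (chr4:108878820-108879062, plus strand).
Rab33a: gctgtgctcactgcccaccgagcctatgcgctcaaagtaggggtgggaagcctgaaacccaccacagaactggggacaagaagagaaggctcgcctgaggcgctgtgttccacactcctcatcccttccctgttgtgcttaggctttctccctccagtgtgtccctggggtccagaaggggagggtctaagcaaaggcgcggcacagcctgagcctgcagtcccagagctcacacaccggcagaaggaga
Rab3b: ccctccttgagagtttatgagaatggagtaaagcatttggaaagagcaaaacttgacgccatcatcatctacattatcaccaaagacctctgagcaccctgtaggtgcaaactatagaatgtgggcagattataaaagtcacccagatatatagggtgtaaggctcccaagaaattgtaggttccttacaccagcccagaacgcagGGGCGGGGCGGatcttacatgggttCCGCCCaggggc
The others belong to genes that fell, Rab29 (chr1:131867027-131867223, plus strand), Rab32 (chr10:10558266-10558457, minus strand) and Rab20 (chr8:11478711-11478890, minus strand).
Rab29: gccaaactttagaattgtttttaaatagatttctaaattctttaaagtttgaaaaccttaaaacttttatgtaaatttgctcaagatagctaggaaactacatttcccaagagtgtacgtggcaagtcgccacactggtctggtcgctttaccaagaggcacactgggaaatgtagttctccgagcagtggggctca
Rab32: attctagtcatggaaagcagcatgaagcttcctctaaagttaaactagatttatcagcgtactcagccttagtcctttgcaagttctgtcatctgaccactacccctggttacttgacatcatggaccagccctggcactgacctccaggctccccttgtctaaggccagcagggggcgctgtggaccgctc
Rab20: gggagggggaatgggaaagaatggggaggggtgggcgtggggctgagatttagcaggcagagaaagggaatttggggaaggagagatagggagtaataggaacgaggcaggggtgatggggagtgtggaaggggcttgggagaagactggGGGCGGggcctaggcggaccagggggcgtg
The printed stretches of Rab33a, Rab29 and Rab32 hold no GC box, that of Rab20 holds 1 and that of Rab3b holds 3, of which 2 overlap. Over the whole 250 bases and both strands, GGGCGG was in 39 of 56 promoters of the 44 Rab genes (69.6%), against 32.7% of all 32851 promoters in the table. The E-box CACGTG, the core of the site read by regulators of lysosomal genes, was in 5 of the 56 (8.9%, against 6.0% of all), and the full cyclic AMP response element TGACGTCA was in 1 (1.8%, against 1.5%). Each motif was counted on its own and may overlap another. These are letter matches in a window and carry no test. The shares over all promoters were not limited to expressed or protein-coding genes, as the members are, so they cover an unlike set.

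Per kilobase of exon, the Rab transcriptome of the DMSO vehicle cultures was led by Rab3a, Rab5c, Rab1b and Rab7. Rab3a, the vesicle Rab of transmitter release, stood at 289 ± 32.8 CPM per kb (SD, n = 4). Rab5c, of early endosome fusion, stood at 165 ± 7.73, Rab1b, of transport from the endoplasmic reticulum to the Golgi, at 153 ± 16.6, and Rab7, of late endosomes, at 133 ± 2.20 CPM per kb. The 3 after Rab3a lay closer to each other, and the intervals of 1 SD of Rab5c and Rab1b overlapped. Exon lengths join all annotated isoforms, and the annotation used for counting is not known. Ranks and shares per kb, also those within families below, depend on these lengths. By CPM without length, Rab6b (464 ± 110) followed Rab3a (517 ± 58.6), above Rab7 (348 ± 5.74), Rab5c (324 ± 15.2) and Rab1b (307 ± 33.3). Another 28 members were between 10 and 100 CPM per kb, 16 between 1 and 10, and 6 were under 1: Rab27b, Rab30, Rab38, Rab37, Rab27a and Rab39, the lowest at 0.211 ± 0.065. Variation within the group was small for most members, with a median coefficient of variation of 10.2% and 12.6% in the vehicle groups without and with the inhibitor and of 7.06% and 5.65% in the acetate groups. Rab26 varied most in both vehicle groups (85.2% and 82.2%), and Rab7 least in DMSO vehicle (1.65%).

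Together the Rab genes took 0.503% to 0.542% of gene counts in vehicle and 0.545% to 0.559% in acetate libraries without inhibitor, and 0.503% to 0.519% and 0.574% to 0.585% with it. Neither pair of ranges overlapped, and these shares need no scaling between libraries. Within the summed level per kb, the 8 synaptic and secretory Rabs took 18.3% to 20.1% without and 23.7% to 26.5% with acetate in the DMSO arm, and 19.5% to 23.8% and 23.2% to 25.8% in the inhibitor arm, where the ranges overlapped. The share of the 8 late endosomal and lysosomal Rabs went the other way, with 11.6% to 13.3% in vehicle and 9.22% to 9.79% in acetate libraries without inhibitor, and 10.7% to 12.6% and 9.33% to 10% with it. Their summed level itself overlapped, at 226 to 231 CPM per kb in vehicle and 213 to 231 in acetate libraries without inhibitor. With the inhibitor it was 220 to 230 and 208 to 224. The lower share thus went with a higher Rab total more than with a lower level of this group.

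The first comparison asked how the Rab genes respond to acetate without the inhibitor. With acetate 20 of the 54 rose and 9 fell by edgeR's quasi-likelihood test. Of all genes tested 51.2% were called, 23.7% higher and 27.5% lower, against 53.7% of the Rab genes, so the total share of calls was near the background. The median Rab fold was 0.07, against -0.03 over all genes. Groups did not overlap for 20 higher and 6 lower members, where over all genes 45.4% did not overlap, 22.1% higher and 23.3% lower. The synaptic vesicle gene Rab26 rose most, and Rab20 and Rab7b, Rabs of phagosomes and lysosomes in macrophage-type cells, fell most. The split depends on the scale: with libraries scaled on 12 neuronal markers the median of all genes moved from -0.03 to -0.68, 3 Rab genes were higher (Rab26, Rab33a and Rab3b) and 38 lower, and the Rab median was -0.57. Of the 29 calls 13 had the opposite sign on that scaling, all of them members that rose on TMM: Rab1b, Rab2a, Rab3d, Rab5c, Rab6a, Rab6b, Rab9, Rab9b, Rab11a, Rab14, Rab15, Rab40b and Rab40c. This scaling takes the neuronal markers as constant, so every direction below is relative to the TMM scale unless stated. The share of all genes called on neuronal-marker scaling is not given here or below. Its counts, for the Rab genes and for each list, therefore need not be particular to them.

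**Figure D1:**
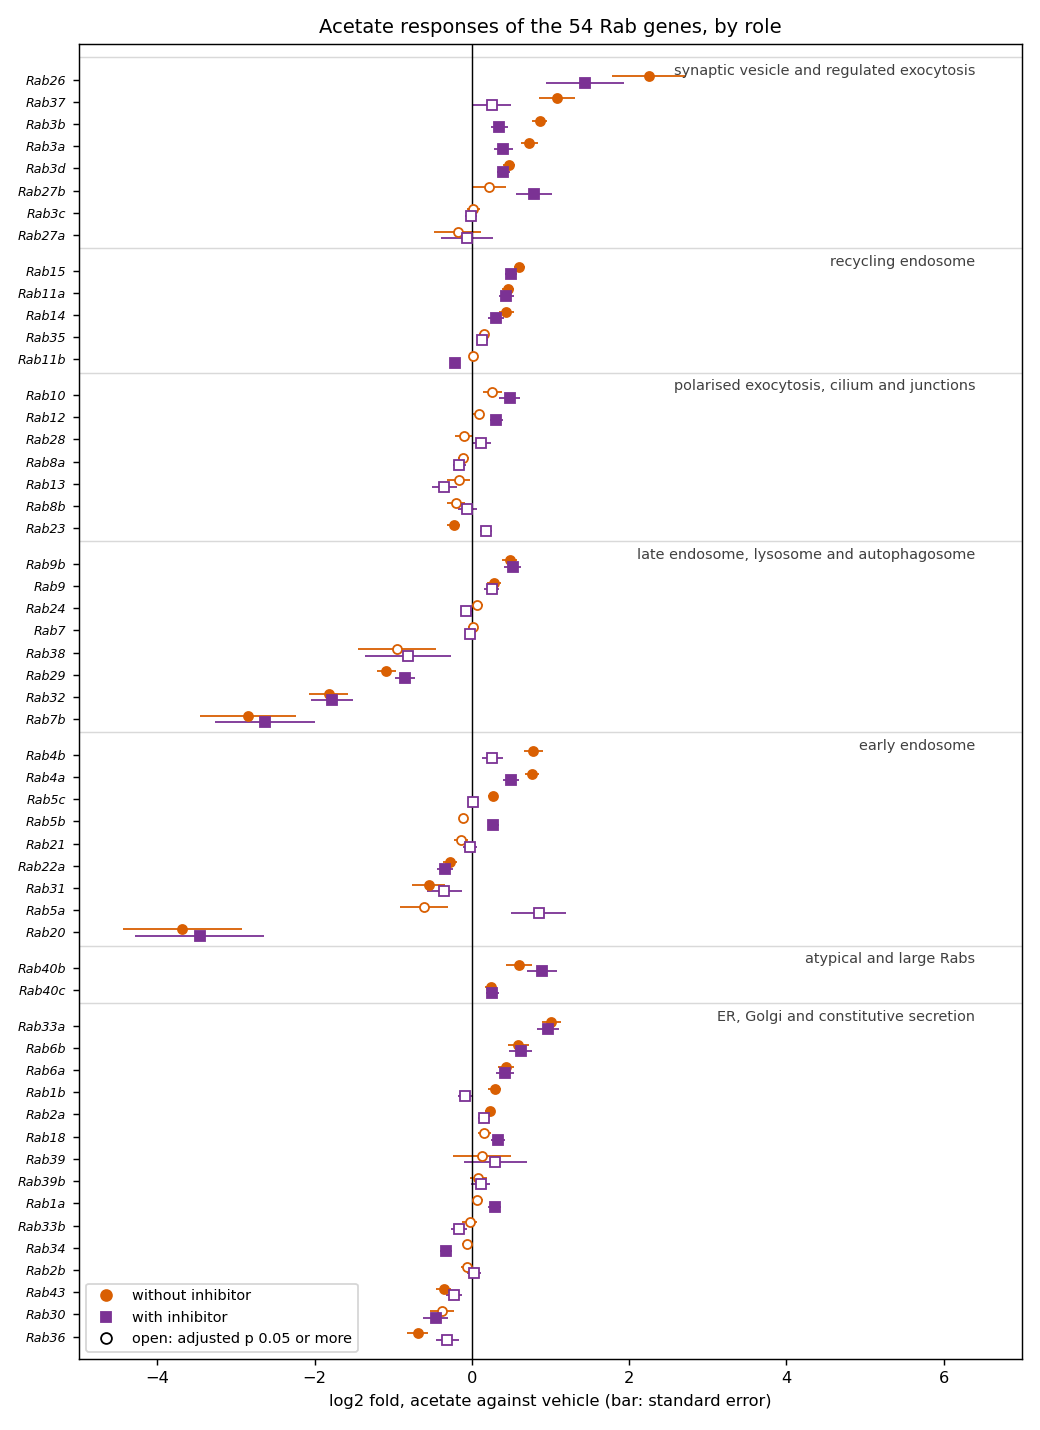
Log2 fold with acetate for each of the 54 Rab genes, in blocks by role, without inhibitor (circles) and with it (squares), with standard errors as bars and open symbols where the adjusted p was 0.05 or more. Rab26 lies farthest right at 2.25 and 1.44, and Rab20 farthest left at -3.68 and -3.46; on neuronal-marker scaling most of the positive folds other than those of Rab26 and Rab33a turn negative or lose their call.

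With the inhibitor present, 20 of 54 Rab genes rose and 8 fell (51.9% called), against 35% of all genes, 14.5% higher and 20.6% lower. Groups did not overlap for 20 higher and 7 lower members (32.8% of all genes, 16.4% in each direction). The median Rab fold was 0.14, against -0.03 over all genes. Scaled on neuronal markers, 3 Rab genes were higher (Rab26, Rab33a and Rab40b) and 27 lower, with a Rab median of -0.36 and an all-gene median of -0.54. The sign turned for 12 of the 28 calls, again members that rose: Rab1a, Rab3a, Rab3b, Rab3d, Rab5b, Rab6a, Rab11a, Rab12, Rab14, Rab15, Rab18 and Rab40c. Both comparisons use separate libraries. Across them 14 members (25.9%) rose in both arms, against 10.2% of all genes, and 5 (9.26%) fell in both, against 15.7%. In opposite directions 0 members were called, against 0.172% of all genes, and 16 (29.6%) were called in neither, against 39.9%. Without inhibitor vehicle 1 the count in the inhibitor arm dropped from 28 to 17.

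The 8 Rabs of synaptic vesicles and regulated exocytosis had 5 members higher and 0 lower in each arm, with median folds of 0.60 and 0.37; on neuronal-marker scaling the medians were -0.04 and -0.13, with 2 higher and 3 lower without inhibitor and 1 higher and 1 lower with it. When the fit held the non-neuronal score as covariate, 3 and 1 were higher and 0 lower, with medians of 0.43 and 0.25. That score itself moved with acetate in both arms, so a call lost in such a fit cannot tell acetate and the score apart. Rab26 (chr17:24527241-24534210), which links synaptic vesicles to autophagosomes, had the highest fold in both arms. The gene Traf7 overlaps 7.0% of the exon bases of Rab26 on the same strand. In DMSO vehicle Rab26 stood at 19.7, 4.30, 5.14 and 5.47 CPM and in DMSO acetate at 38.5, 40.5, 44.9 and 41.1, and with the inhibitor at 9.86, 30.0 and 6.50 in vehicle and 46.6, 39.4, 45.5 and 35.0 in acetate. All acetate libraries were above all vehicle libraries, and the 2 vehicle libraries with low non-neuronal scores, DMSO vehicle 1 at 19.7 and inhibitor vehicle 2 at 30.0, were the highest of theirs. The fold was 2.25 (SE 0.47, adjusted p = 0.0013) without inhibitor and 1.44 (SE 0.50, adjusted p = 0.0383) with it, by edgeR's quasi-likelihood test. Without those 2 libraries the folds were 3.06 and 2.36, and 0.45 (adjusted p = 0.279) and 0.37 (adjusted p = 0.321) in a fit that takes the non-neuronal score as covariate. With the inhibitor, the call was also lost when inhibitor vehicle 1 (1.20) or 3 (1.07) or any 1 of the inhibitor acetate libraries 1 to 4 (1.38 to 1.51) was left out.

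**Figure D2:**
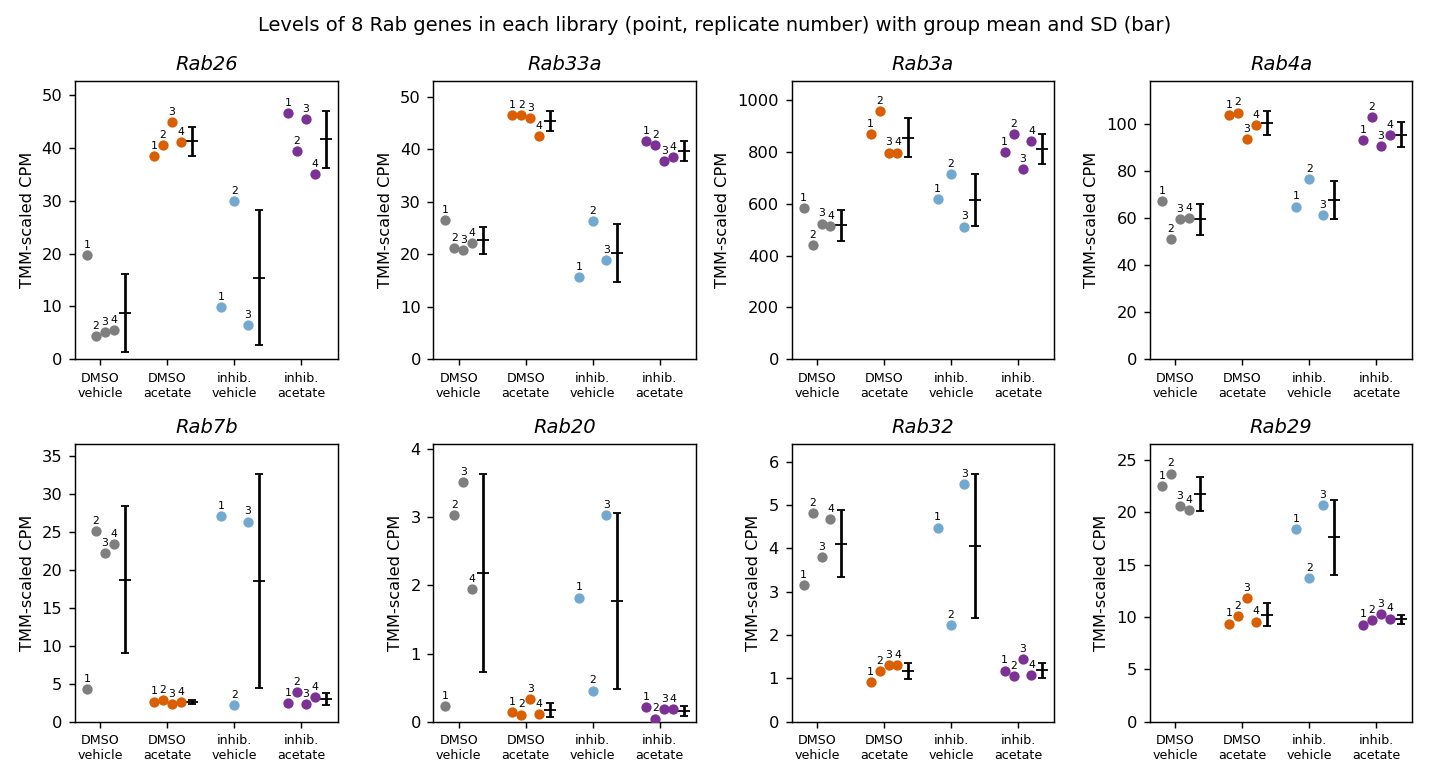
TMM-scaled CPM of 8 Rab genes in each of the 15 libraries (points, numbered by replicate) with the mean and SD of each group as a bar. Rab33a and Rab4a are higher and Rab29 and Rab32 lower in all acetate libraries than in all vehicle libraries, whereas Rab26 and Rab7b in DMSO vehicle 1 and inhibitor vehicle 2 sit towards the acetate libraries.

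The Rab3 genes, which encode the GTPases that dock synaptic vesicles through RIM proteins, responded unequally. Rab3a levels were 585, 442, 524 and 515 CPM in vehicle and 870, 960, 798 and 798 in acetate libraries of the DMSO arm, and, with the inhibitor, 618, 715 and 512 in vehicle and 800, 870, 735 and 842 in acetate. Acetate libraries were higher than the vehicle libraries of their arm without overlap, with folds of 0.73 (SE 0.11, adjusted p = 0.000144) and 0.40 (SE 0.12, adjusted p = 0.0187) by edgeR. Without inhibitor Rab3b was at 82.0, 64.9, 68.5 and 70.5 CPM in vehicle and 134, 142, 122 and 120 in acetate, and with it at 100, 120 and 87.3 and at 126, 135, 117 and 146. Its groups did not overlap without inhibitor, but inhibitor vehicle 2 at 120 lay within the inhibitor acetate range of 117 to 146. Rab3b rose by 0.86 (SE 0.10, adjusted p = 3.73e-05) and 0.35 (SE 0.11, adjusted p = 0.0266) by edgeR, and scaled on neuronal markers it was 0.22 (adjusted p = 0.0269) and -0.14 (adjusted p = 0.187). Another gene overlaps 9.4% of the exon bases of Rab3b on the other strand. Rab3d rose by 0.47 (SE 0.08) and 0.40 (SE 0.08), while Rab3c had 0.02 (SE 0.08) and -0.01 (SE 0.08) and did not pass in either arm. Within the summed Rab3 level per kb, which needs no scaling, Rab3c made up 6.13% ± 1.15 (SD, n = 4) without acetate and 3.82% ± 0.147 (n = 4) with it, and 5.21% ± 0.626 (n = 3) and 3.94% ± 0.296 (n = 4) in the inhibitor arm. In the inhibitor arm Rab3a lost its call without inhibitor vehicle 1 (0.41) or 3 (0.29), and Rab3b without inhibitor vehicle 1 (0.34) or 3 (0.25) or inhibitor acetate 2 (0.34) or 4 (0.29).

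Of the secretory Rabs that are expressed at low levels, Rab37, a Rab of secretory granules, rose in 1 arm. Rab37 read 0.564, 1.11, 0.788 and 0.880 CPM in the DMSO vehicle libraries and 1.66, 2.21, 1.45 and 1.78 in those with acetate, and 1.17, 1.05 and 1.02 and then 1.48, 0.918, 1.44 and 1.30 with the inhibitor. Without inhibitor all acetate libraries were above the vehicle libraries, at 1.08 (SE 0.23, adjusted p = 0.00154) by edgeR, and with inhibitor the groups overlapped at 0.25 (SE 0.25, adjusted p = 0.471). Its counts were 15 to 64 per library. Rab27b, which carries secretory vesicles to the plasma membrane, showed a call in the other arm. In DMSO vehicle Rab27b stood at 6.88, 4.30, 3.57 and 3.06 CPM and in DMSO acetate at 4.88, 5.60, 4.87 and 5.51, and with the inhibitor at 3.39, 5.15 and 3.63 in vehicle and 6.57, 6.98, 7.14 and 7.33 in acetate. The fold was 0.22 (SE 0.21, adjusted p = 0.385) without inhibitor, with overlapping groups, and 0.79 (SE 0.23, adjusted p = 0.0166) with it, without overlap. Without DMSO vehicle 1 the former was 0.50 (adjusted p = 0.0155), and the latter was 0.68 (adjusted p = 0.0783) without inhibitor vehicle 1 and 0.72 (adjusted p = 0.0681) without inhibitor vehicle 3, by edgeR. The close relative Rab27a, at 9 to 36 counts per library, had -0.18 (SE 0.30) and -0.06 (SE 0.33).

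The 15 Rabs of the endoplasmic reticulum, Golgi and constitutive secretion had 5 higher and 2 lower in each arm, with medians of 0.08 and 0.11; scaled on neuronal markers these were -0.57 and -0.36, with 1 higher (Rab33a) in each arm and 11 and 9 lower. Under the covariate 1 (Rab33a) was higher and 0 lower in each arm, at medians of 0.02. Rab33a (chrX:48519285-48530232), whose upstream sequence is printed above and which acts on Golgi-derived vesicles in growing axons, rose in both arms. Rab33a levels were 26.5, 21.2, 20.8 and 22.1 CPM in vehicle and 46.6, 46.6, 46.0 and 42.6 in acetate libraries of the DMSO arm, and, with the inhibitor, 15.6, 26.3 and 18.9 in vehicle and 41.6, 40.9, 37.7 and 38.6 in acetate. No acetate library overlapped a vehicle library, and the highest vehicle libraries, DMSO vehicle 1 (26.5) and inhibitor vehicle 2 (26.3), were below the 8 acetate libraries (37.7 to 46.6). The folds were 1.01 (SE 0.12, adjusted p = 4.07e-05) and 0.97 (SE 0.14, adjusted p = 0.000399) by edgeR, 0.37 and 0.50 scaled on neuronal markers, and 0.53 and 0.66 with the score as covariate, and all of these passed. Its paralog Rab33b had -0.03 (SE 0.10) and -0.16 (SE 0.10) and passed in neither arm. Rab33a took 79.9% ± 1.23 (SD, n = 4) of the pair's level per kb without acetate and 89.1% ± 0.779 (n = 4) with it, and 76.3% ± 2.08 (n = 3) and 87.7% ± 0.902 (n = 4) in the inhibitor arm. A predicted gene overlaps 17.6% of the exon bases of Rab33b on the other strand, so the counts of Rab33b and these shares are uncertain.

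Rab6b, the brain form of the Golgi Rab6, and its ubiquitous paralog Rab6a rose together. Without inhibitor Rab6b was at 622, 378, 454 and 404 CPM in vehicle and 778, 693, 694 and 628 in acetate, and with it at 451, 562 and 450 and at 714, 794, 757 and 729. The groups did not overlap, with folds of 0.59 (SE 0.13, adjusted p = 0.00214) and 0.62 (SE 0.15, adjusted p = 0.00565) by edgeR, although DMSO vehicle 1 at 622 lay close to the lowest DMSO acetate library at 628. Rab6a rose by 0.43 (SE 0.10) and 0.42 (SE 0.11), and the share of Rab6b within the pair had overlapping ranges in both arms. The gene Mrpl48 overlaps 11.7% of the exon bases of Rab6a on the other strand. Both Rab6 folds without inhibitor were below 0 on neuronal-marker scaling (-0.03 and -0.21), with no call. Rab1b rose by 0.29 (SE 0.08) without inhibitor, with groups that overlapped, and had -0.09 (SE 0.09) with it, and its paralog Rab1a had 0.07 (SE 0.07) and rose by 0.29 (SE 0.08). Rab2a rose by 0.23 (SE 0.06) without inhibitor (with it 0.15 (SE 0.07)), and Rab18, of lipid droplets and the endoplasmic reticulum, rose by 0.33 (SE 0.09) with it (without it 0.16 (SE 0.08)). Without inhibitor vehicle 1 the inhibitor-arm calls of Rab6a (0.33), Rab1a (0.25) and Rab18 (0.24) were lost, and that of Rab6a also without inhibitor vehicle 3 (0.38).

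Lower with acetate in this group were Rab36, Rab43, Rab30 and Rab34, each in 1 arm. Rab36 is a Golgi-associated Rab that positions late endosomes. Rab36 read 36.3, 41.5, 45.6 and 46.4 CPM in the DMSO vehicle libraries and 31.9, 24.7, 24.7 and 23.4 in those with acetate, and 46.8, 32.3 and 45.8 and then 31.3, 37.6, 30.0 and 35.1 with the inhibitor. It fell without overlap in the DMSO arm, at -0.69 (SE 0.13, adjusted p = 0.000673), and had -0.31 (SE 0.14, adjusted p = 0.0963) with the inhibitor by edgeR, where without inhibitor vehicle 2 it was -0.46 (adjusted p = 0.00907). In DMSO vehicle Rab43 stood at 50.4, 55.9, 58.7 and 63.0 CPM and in DMSO acetate at 50.7, 43.4, 41.0 and 42.3, and with the inhibitor at 62.1, 46.5 and 60.7 in vehicle and 48.6, 47.9, 48.3 and 47.3 in acetate. DMSO vehicle 1 at 50.4 lay just under DMSO acetate 1 at 50.7, so the groups overlapped, and Rab43, of transport into the Golgi, had -0.36 (SE 0.10, adjusted p = 0.00614) and -0.23 (SE 0.10, adjusted p = 0.0956) by edgeR; without inhibitor vehicle 2 the latter was -0.35 (adjusted p = 0.00719). A predicted gene covers 77.3% of the exon bases of Rab43 on the same strand, so its counts are uncertain. With the score as covariate neither gene passed in the DMSO arm (-0.22 and -0.01).

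In the inhibitor arm the Golgi Rab30 and Rab34, a Rab of Golgi and cilia, fell. Rab30 levels were 3.87, 4.89, 5.24 and 5.93 CPM in vehicle and 4.05, 4.29, 3.84 and 3.08 in acetate libraries of the DMSO arm, and, with the inhibitor, 6.60, 6.11 and 5.60 in vehicle and 4.88, 3.63, 4.59 and 4.68 in acetate. The inhibitor-arm groups did not overlap, at -0.46 (SE 0.16, adjusted p = 0.0431) by edgeR, a call that was lost when any 1 of the 7 libraries of that arm was left out (-0.37 to -0.51, adjusted p = 0.0519 to 0.156). Without inhibitor Rab30 had -0.38 (SE 0.15, adjusted p = 0.0515), and without DMSO vehicle 1 -0.49 (adjusted p = 0.0106). Without inhibitor Rab34 was at 53.1, 47.9, 55.9 and 58.4 CPM in vehicle and 53.9, 54.9, 48.6 and 49.6 in acetate, and with it at 67.4, 60.4 and 68.5 and at 50.8, 52.5, 52.1 and 53.2. Inhibitor vehicle libraries, at 60.4 to 68.5, were above those of the 3 other groups (47.9 to 58.4). Rab34 fell, at -0.33 (SE 0.08, adjusted p = 0.00529), there and had -0.06 (SE 0.07, adjusted p = 0.525) without inhibitor by edgeR. The other members, Rab2b, Rab39 and Rab39b, had folds between -0.06 and 0.30 in the 2 arms and passed in neither.

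Early endosomal Rabs split by gene. Of 9 members, 3 rose and 3 fell without inhibitor (median -0.14) and 2 rose and 2 fell with it (median 0.02); scaled on neuronal markers 0 were higher and 7 and 6 lower, and under the covariate 1 and 2 were higher and 1 and 0 lower. The Rab4 pair, which returns receptors from early endosomes to the surface, rose. Rab4a read 67.1, 51.2, 59.7 and 60.1 CPM in the DMSO vehicle libraries and 104, 105, 93.7 and 99.6 in those with acetate, and 64.9, 76.8 and 61.4 and then 93.2, 103, 90.6 and 95.5 with the inhibitor. No acetate library overlapped the vehicle libraries, and the folds were 0.76 (SE 0.09, adjusted p = 2.53e-05) and 0.50 (SE 0.10, adjusted p = 0.00195) by edgeR. In DMSO vehicle Rab4b stood at 128, 88.7, 97.6 and 105 CPM and in DMSO acetate at 175, 198, 166 and 178, and with the inhibitor at 108, 143 and 97.5 in vehicle and 147, 146, 130 and 131 in acetate. It rose by 0.78 (SE 0.12, adjusted p = 0.000189) without inhibitor, and with it inhibitor vehicle 2 at 143 reached into the acetate range, at 0.26 (SE 0.13, adjusted p = 0.143) by edgeR (0.43, adjusted p = 0.0103, without that library). A predicted read-through gene covers 85.2% of the exon bases of Rab4b on the same strand, which makes its counts uncertain. Rab4a, with no such overlap, was at 0.49 (adjusted p = 0.00971) and 0.32 (adjusted p = 0.0413) with the score as covariate, and at 0.12 and 0.00 on neuronal-marker scaling, with no call.

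The Rab5 genes encode the GTPases that define early endosomes. Rab5c, the most abundant of them, rose without inhibitor by 0.27 (SE 0.06) and had 0.02 (SE 0.06) with it, and Rab5b had -0.11 (SE 0.06) and then rose by 0.27 (SE 0.07). Rab5a levels were 17.5, 14.9, 10.8 and 9.80 CPM in vehicle and 9.24, 5.22, 9.83 and 10.5 in acetate libraries of the DMSO arm, and, with the inhibitor, 5.47, 8.16 and 7.37 in vehicle and 16.9, 10.7, 17.3 and 5.53 in acetate. Its groups overlapped in both arms, with -0.61 (SE 0.31, adjusted p = 0.113) and 0.85 (SE 0.35, adjusted p = 0.0693) by edgeR, and without inhibitor acetate 4 (5.53 CPM) the latter was 1.10 (adjusted p = 0.0144). Per kb, Rab5c made up 84.7% ± 0.946 (SD, n = 4) of the 3 without and 88.4% ± 1.24 (n = 4) with acetate in the DMSO arm, and 85.8% ± 0.830 (n = 3) and 82.9% ± 1.19 (n = 4) in the inhibitor arm. The share of Rab5b was 12.4% ± 0.828, 9.96% ± 0.949, 12.7% ± 0.699 and 14.6% ± 0.734 in the same order.

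Rab20 (chr8:11453518-11478710), a Rab of maturing phagosomes, had the strongest fall of any member in both arms. Without inhibitor Rab20 was at 0.226, 3.03, 3.52 and 1.95 CPM in vehicle and 0.139, 0.104, 0.328 and 0.108 in acetate, and with it at 1.82, 0.456 and 3.03 and at 0.218, 0.0459, 0.185 and 0.180. DMSO vehicle 1 at 0.226 lay inside the DMSO acetate range of 0.104 to 0.328, and inhibitor vehicle 2 at 0.456 was above the inhibitor acetate libraries but far below the other inhibitor vehicle libraries. The acetate libraries held only 1 to 7 Rab20 counts each. Its folds were -3.68 (SE 0.76, adjusted p = 0.00118) and -3.46 (SE 0.82, adjusted p = 0.00583) by edgeR, and with the score as covariate -0.66 (adjusted p = 0.658) and -0.96 (adjusted p = 0.503). An antisense transcript overlaps 25.6% of its exon bases on the other strand, and the sources used here do not say whether counting used strand.

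Rab31, which sorts cargo between the Golgi and endosomes, and Rab22a, of early endosome sorting, also read lower with acetate. Rab31 read 165, 104, 105 and 95.4 CPM in the DMSO vehicle libraries and 71.3, 70.3, 92.9 and 86.5 in those with acetate, and 79.2, 117 and 101 and then 89.7, 69.0, 101 and 51.8 with the inhibitor. Rab31 stood highest in DMSO vehicle 1 (165) and, within its group, in inhibitor vehicle 2 (117), the libraries with low non-neuronal scores. It fell, at -0.55 (SE 0.21, adjusted p = 0.0373), without inhibitor and had -0.35 (SE 0.22, adjusted p = 0.238) with it by edgeR. Left out in turn, DMSO vehicle 1 gave -0.35 (adjusted p = 0.123), DMSO acetate 1 -0.50 (adjusted p = 0.0912), DMSO acetate 2 -0.49 (adjusted p = 0.0980) and DMSO acetate 4 -0.59 (adjusted p = 0.0534) by edgeR. In DMSO vehicle Rab22a stood at 28.4, 32.2, 36.1 and 36.6 CPM and in DMSO acetate at 27.3, 30.1, 27.3 and 24.9, and with the inhibitor at 41.0, 41.2 and 34.5 in vehicle and 32.5, 30.2, 30.0 and 29.8 in acetate. The groups of the inhibitor arm did not overlap and those of the DMSO arm did, with -0.28 (SE 0.09, adjusted p = 0.0185) and -0.34 (SE 0.10, adjusted p = 0.0145) by edgeR. Its call was lost without DMSO acetate 4 (-0.24) in one arm and without inhibitor vehicle 1 (-0.30) in the other. Rab21, the last member of this group, passed in neither arm, with -0.14 (SE 0.09) and -0.02 (SE 0.09).

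**Figure D3:**
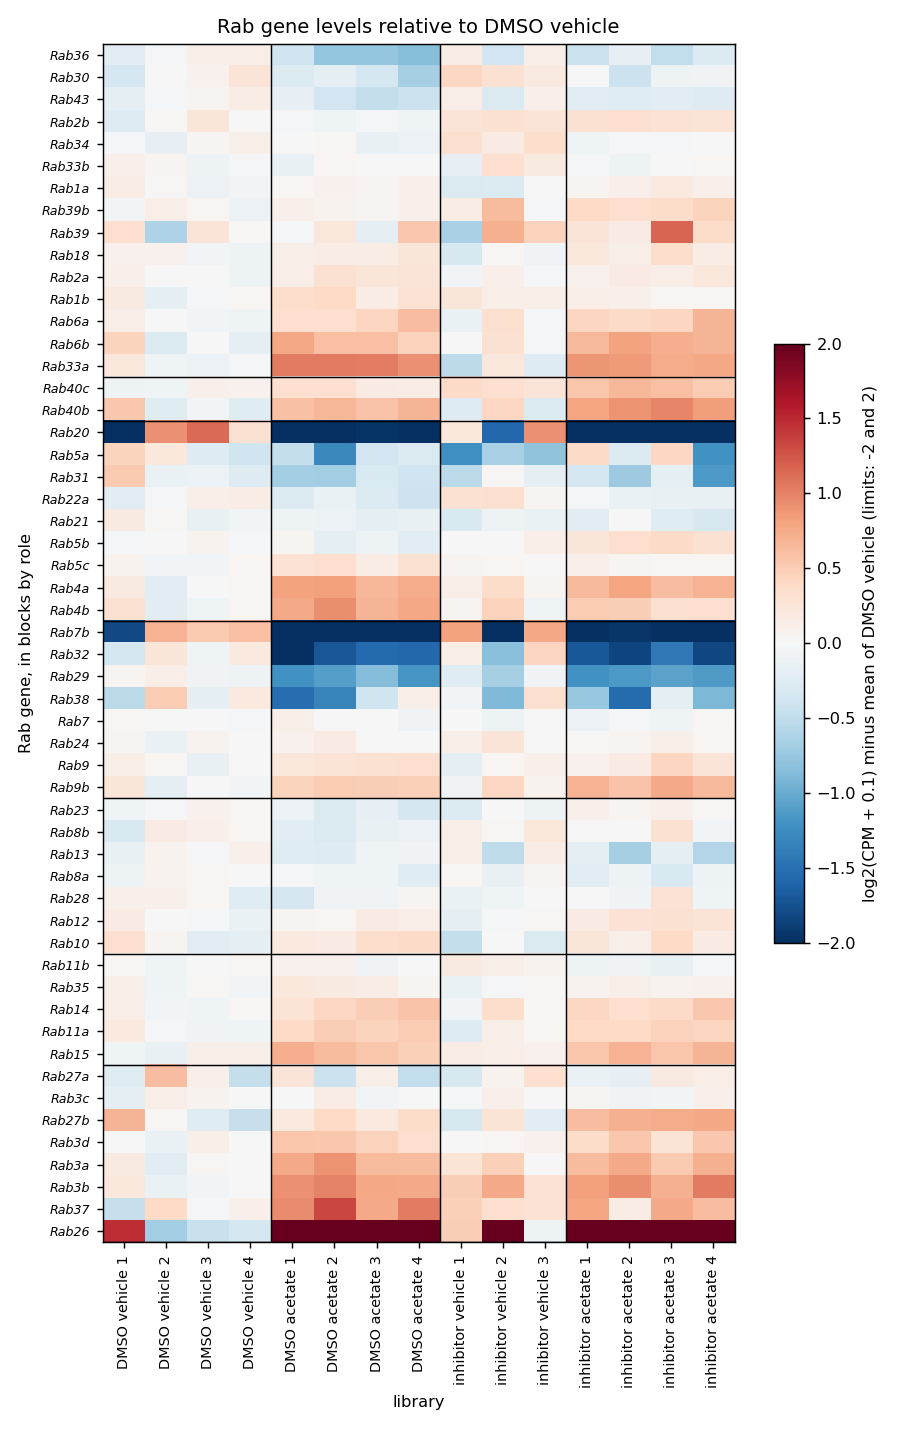
Level of each of the 54 Rab genes (rows, in blocks by role) in each of the 15 libraries (columns), as log2(CPM + 0.1) minus the mean of DMSO vehicle, with colours limited at -2 and 2. In the columns of DMSO vehicle 1 and inhibitor vehicle 2, Rab26, Rab7b and Rab20 shift towards the colours of the acetate libraries, while Rab33a does so less. Rab29 shifts that way in inhibitor vehicle 2 but not in DMSO vehicle 1.

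Recycling endosomal Rabs had 3 of 5 members higher in each arm, with 0 and 1 lower and medians of 0.44 and 0.31; scaled on neuronal markers 0 were higher and 2 lower in each arm, at medians of -0.20 and -0.18, and under the covariate 1 was higher and 0 lower in each arm. Rab15, a neuron-enriched regulator of endocytic recycling, moved most. Rab15 levels were 107, 103, 123 and 124 CPM in vehicle and 188, 176, 168 and 159 in acetate libraries of the DMSO arm, and, with the inhibitor, 126, 125 and 121 in vehicle and 167, 185, 168 and 183 in acetate. The 8 acetate libraries (159 to 188) were above the 7 vehicle libraries (103 to 126), and inhibitor vehicle 2 at 125 was within the other vehicle values. The folds were 0.60 (SE 0.07, adjusted p = 4.07e-05) and 0.50 (SE 0.08, adjusted p = 0.000782) by edgeR and 0.63 and 0.52 with the score as covariate, but -0.06 and -0.01 with no call on neuronal-marker scaling.

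Rab11a marks the recycling endosome that supplies dendritic spines. Without inhibitor Rab11a was at 98.0, 83.9, 82.3 and 81.0 CPM in vehicle and 114, 121, 117 and 122 in acetate, and with it at 71.8, 93.7 and 88.8 and at 113, 113, 119 and 116. Acetate libraries were higher without overlap, with 0.46 (SE 0.08, adjusted p = 0.00041) and 0.44 (SE 0.09, adjusted p = 0.00243) by edgeR, and -0.18 and -0.05 on neuronal-marker scaling. Rab11b read 143, 131, 139 and 143 CPM in the DMSO vehicle libraries and 147, 147, 132 and 138 in those with acetate, and 157, 151 and 146 and then 129, 133, 125 and 135 with the inhibitor. Its paralog Rab11b had 0.02 (SE 0.06, adjusted p = 0.793) without inhibitor and fell, at -0.22 (SE 0.06, adjusted p = 0.0147), with it, without overlap there, and without inhibitor vehicle 1 it was -0.18 (adjusted p = 0.0660). A pseudogene shares 13.63% of the 50-base stretches of Rab11b. Within the pair Rab11a took 61.8% ± 1.98 (SD, n = 4) of the level per kb without acetate and 68.7% ± 1.38 (n = 4) with it, and 59.2% ± 4.12 (n = 3) and 69.8% ± 1.06 (n = 4) in the inhibitor arm. Rab14 rose by 0.44 (SE 0.09) and 0.31 (SE 0.10), and Rab35 had 0.15 (SE 0.06) and 0.13 (SE 0.07) and passed in neither arm. The call of Rab14 with the inhibitor was lost without inhibitor vehicle 1 (0.23) or 3 (0.27) or inhibitor acetate 1 (0.31) or 4 (0.27).

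The 8 late endosomal, lysosomal and autophagosomal Rabs held 3 members that fell in both arms, Rab7b, Rab29 and Rab32. Without inhibitor 2 rose and 3 fell (median -0.47), and with it 1 rose and 3 fell (median -0.44); scaled on neuronal markers 0 were higher and 7 and 5 lower. Under the covariate the medians turned to 0.08 and 0.09, with 0 higher and 2 lower in each arm. Rab7 (chr6:87999106-88045270), which drives fusion of late endosomes with lysosomes, passed in neither arm. Other genes, a pseudogene most often, share 12.67% of the 50-base stretches of Rab7, and a predicted gene overlaps 7.8% of its exon bases on the other strand. In DMSO vehicle Rab7 stood at 356, 346, 345 and 343 CPM and in DMSO acetate at 376, 348, 348 and 330, and with the inhibitor at 350, 325 and 345 in vehicle and 321, 340, 329 and 355 in acetate. The groups overlapped in both arms, with 0.01 (SE 0.06, adjusted p = 0.882) and -0.02 (SE 0.06, adjusted p = 0.863) by edgeR, on a scale where neuronal-marker scaling gave -0.64 and -0.53, close to the shift of all genes. The sign of the DMSO-arm value turned to -0.01 without DMSO vehicle 4 and -0.02 without DMSO acetate 1.

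Rab7b (chr1:131688695-131715439), a lysosomal Rab best known from monocytes and macrophages, fell steeply. Rab7b levels were 4.33, 25.1, 22.2 and 23.4 CPM in vehicle and 2.66, 2.83, 2.29 and 2.59 in acetate libraries of the DMSO arm, and, with the inhibitor, 27.1, 2.23 and 26.4 in vehicle and 2.48, 3.95, 2.32 and 3.24 in acetate. Of 7 vehicle libraries 5 lay between 22.2 and 27.1, while DMSO vehicle 1 at 4.33 was just above the acetate libraries and inhibitor vehicle 2 at 2.23 was below all of them. The folds were -2.85 (SE 0.61, adjusted p = 0.00155) and -2.63 (SE 0.63, adjusted p = 0.00637) by edgeR, -3.17 and -3.15 without those 2 libraries, and 0.67 (adjusted p = 0.148) and 0.30 (adjusted p = 0.514) with the score as covariate. Mean log2 CPM of the microglia markers ran the same way, at 2.55 in DMSO vehicle 1, -0.97 in inhibitor vehicle 2 and 4.10 to 4.98 in the other vehicle libraries.

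Rab32 (chr10:10545002-10558265) and Rab29 (chr1:131867224-131872887), related Rabs of lysosome-related organelles that bind the kinase LRRK2, fell in both arms and under every alternative listed for them. Without inhibitor Rab32 was at 3.16, 4.82, 3.80 and 4.67 CPM in vehicle and 0.915, 1.17, 1.31 and 1.30 in acetate, and with it at 4.48, 2.23 and 5.48 and at 1.18, 1.06, 1.44 and 1.08. No acetate library overlapped a vehicle library, and inhibitor vehicle 2 at 2.23 lay between them. Rab32 fell, at -1.82 (SE 0.25, adjusted p = 8.75e-05) and -1.78 (SE 0.27, adjusted p = 0.000557) by edgeR, and had -0.86 and -1.02 with the score as covariate. Rab29 read 22.5, 23.7, 20.6 and 20.2 CPM in the DMSO vehicle libraries and 9.37, 10.1, 11.8 and 9.57 in those with acetate, and 18.4, 13.7 and 20.7 and then 9.27, 9.73, 10.3 and 9.85 with the inhibitor. The groups again did not overlap, and inhibitor vehicle 2 at 13.7 stayed above the 8 acetate libraries (9.27 to 11.8). Rab29 fell, at -1.09 (SE 0.12, adjusted p = 1.59e-05) and -0.85 (SE 0.13, adjusted p = 0.000504) by edgeR, with -0.78 and -0.61 under the covariate. Rab38, the closest relative of Rab32, had -0.95 (SE 0.50) and -0.81 (SE 0.55) at 3 to 27 counts per library and did not pass; without DMSO acetate 4 the former was -1.41 (adjusted p = 0.0372 by edgeR).

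**Figure D4:**
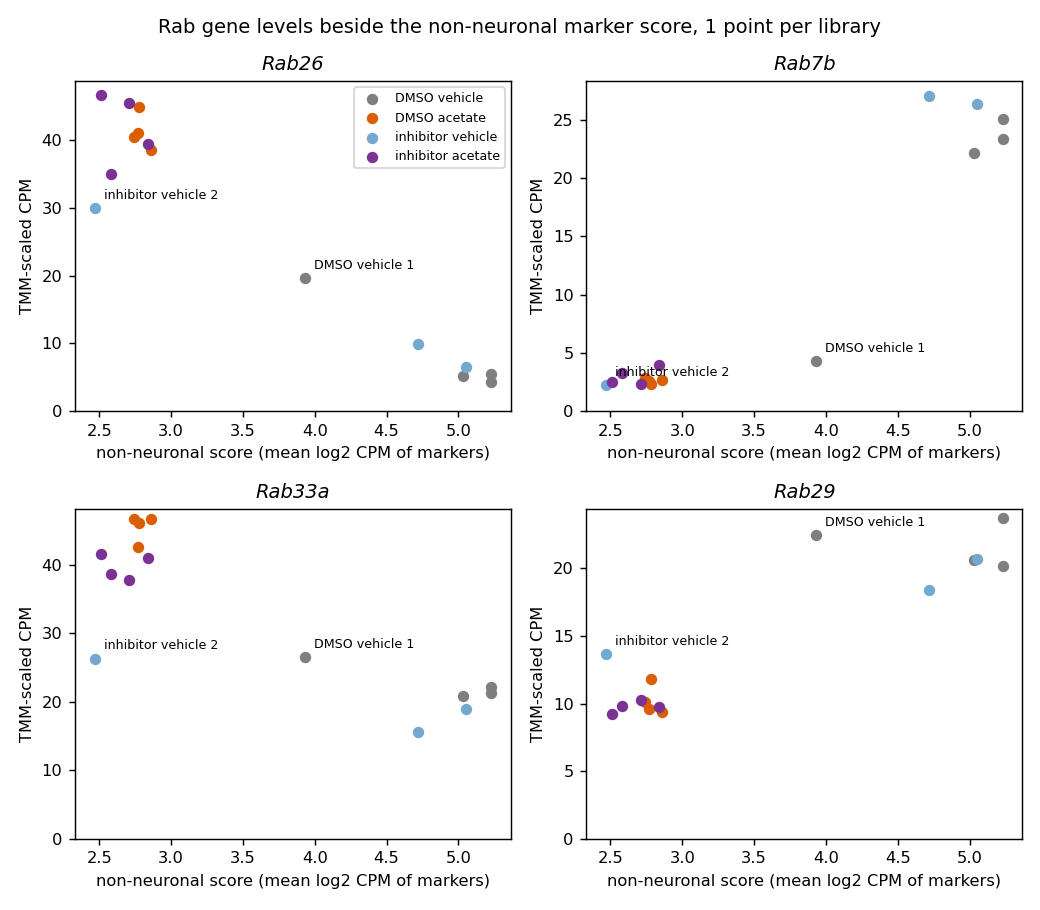
TMM-scaled CPM of 4 Rab genes against the non-neuronal marker score (mean log2 CPM) of each library, coloured by group. In inhibitor vehicle 2, at a score of 2.47, Rab7b (2.23) and Rab26 (30.0) lie near the acetate libraries, whereas Rab33a (26.3) lies below them and Rab29 (13.7) above them.

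The Rab9 pair, which returns receptors from late endosomes to the Golgi, was higher. In DMSO vehicle Rab9b stood at 23.8, 17.5, 20.1 and 19.4 CPM and in DMSO acetate at 27.4, 28.7, 28.4 and 28.1, and with the inhibitor at 19.1, 26.8 and 21.1 in vehicle and 32.6, 29.7, 33.9 and 31.6 in acetate. Rab9b rose by 0.48 (SE 0.10, adjusted p = 0.00175) and 0.52 (SE 0.11, adjusted p = 0.00402) by edgeR, without overlap, although inhibitor vehicle 2 at 26.8 was the closest vehicle library of its arm. Scaled on neuronal markers Rab9b was at -0.15 and 0.03 with no call. Rab9 rose by 0.28 (SE 0.09) without inhibitor and had 0.25 (SE 0.10, adjusted p = 0.0515) with it by edgeR, with values of 0.22 (adjusted p = 0.0658) without DMSO vehicle 3 and 0.30 (adjusted p = 0.0366) without inhibitor acetate 1. Rab24, of autophagosomes, had 0.07 (SE 0.07) and -0.07 (SE 0.07), and 66.4% of its exon bases overlap Prelid1 on the other strand.

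The 7 Rabs of polarised exocytosis, cilia and junctions had 0 higher and 1 lower without inhibitor (median -0.11) and 2 higher and 0 lower with it (median 0.12); neuronal-marker scaling gave 0 higher with 7 and 4 lower, and the covariate 0 in either direction. Rab10, of exocytosis and axon growth, and Rab12 rose in the inhibitor arm by 0.48 (SE 0.13) and 0.31 (SE 0.08), and had 0.26 (SE 0.12) and 0.09 (SE 0.07) without it. Rab23, a brake on Hedgehog signalling in cilia, fell, at -0.23 (SE 0.08), without inhibitor and had 0.18 (SE 0.08) with it. Its DMSO-arm call was lost without DMSO vehicle 3 (-0.21), DMSO acetate 2 (-0.20) or DMSO acetate 4 (-0.19), and the inhibitor-arm value was 0.25 (adjusted p = 0.0402 by edgeR) without inhibitor vehicle 2. Without inhibitor vehicle 1 the call of Rab10 was lost (0.39), and without DMSO vehicle 1 Rab10 in the DMSO arm was 0.37 (adjusted p = 0.0109 by edgeR). Rab8a, Rab8b, Rab13 and Rab28 passed in neither arm, with folds from -0.35 to 0.12. The remaining group, the Rab40 genes, whose proteins join a ubiquitin ligase, had 2 of 2 higher in each arm, and 0 and 1 under the covariate; on neuronal-marker scaling Rab40c was -0.41 and called lower without inhibitor. Rab40b levels were 15.7, 9.06, 10.4 and 9.11 CPM in vehicle and 16.3, 17.2, 16.1 and 17.3 in acetate libraries of the DMSO arm, and, with the inhibitor, 8.99, 14.4 and 8.89 in vehicle and 18.7, 20.1, 21.2 and 19.4 in acetate. Rab40b rose by 0.60 (SE 0.17, adjusted p = 0.0101) and 0.89 (SE 0.19, adjusted p = 0.00364) by edgeR without overlap. Rab40c rose by 0.24 (SE 0.07) and 0.26 (SE 0.08), and lost the latter call without inhibitor vehicle 3 (0.23).

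The position of the low-score vehicle libraries was counted for every member. DMSO vehicle 1 and inhibitor vehicle 2 were both above the other vehicle libraries of their groups for 13 of the 20 members that rose without inhibitor, where this held for 44.2% of all genes that rose. Both were below the others for 5 of the 9 that fell, against 53.9% of all genes that fell. Without these libraries 24 members rose and 11 fell in the DMSO arm, and 26 rose and 12 fell in the inhibitor arm, where 59.6% and 49.2% of all genes were called. When the fit held the non-neuronal score as covariate, the DMSO arm had 6 higher (Rab15, Rab33a, Rab37, Rab3b, Rab3d and Rab4a) and 3 lower (Rab29, Rab31 and Rab32), and the inhibitor arm 6 higher and 2 lower. Of all genes 14% and 12.4% were called in those fits. The score averaged 4.86 log2 CPM without and 2.79 with acetate in the DMSO arm, and 4.08 and 2.66 in the inhibitor arm. It therefore moved with acetate, and its spread within groups lay mostly in DMSO vehicle 1 and inhibitor vehicle 2. A call lost in these fits cannot tell acetate and the score apart.

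**Figure D5:**
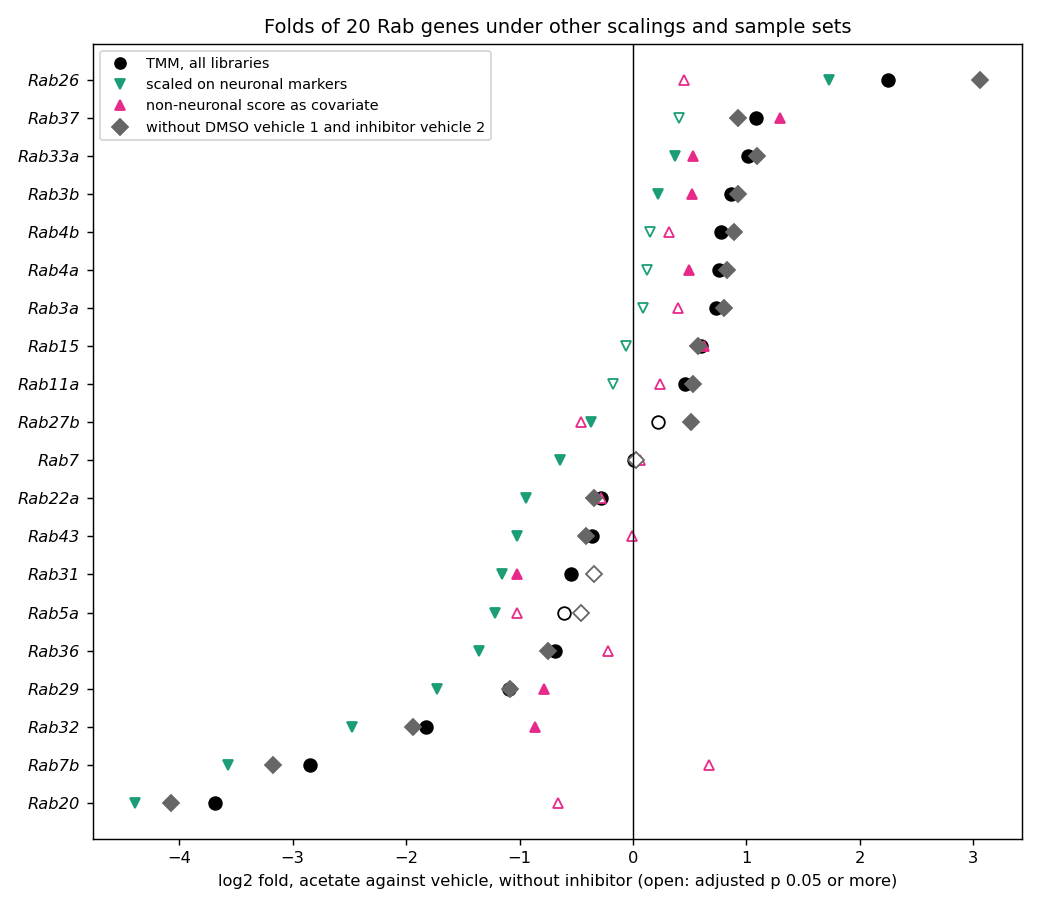
Log2 fold with acetate without inhibitor for 20 Rab genes under TMM with all libraries (circles), scaling on neuronal markers, the non-neuronal score as covariate, and without DMSO vehicle 1 and inhibitor vehicle 2; open symbols have an adjusted p of 0.05 or more. Rab33a stays to the right at 0.37 to 1.09 and Rab29 to the left at -0.78 to -1.73, whereas Rab7b runs from -3.57 to 0.67 and Rab11a and Rab15 cross 0 on neuronal-marker scaling.

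Subtracting the acetate fold of the DMSO arm from that of the inhibitor arm asks whether the responses differ. Of the 54 Rab genes 0 passed edgeR's test of this difference, against 0.0199% of all genes (0.0133% higher and 0.00663% lower). In that test 11 of the 54 had an unadjusted p under 0.05, against 3113 of all 15075 genes, a similar share. DESeq2 called 6 Rab genes, but its share over all genes is not set beside this count, which need not be particular to the Rab genes. The largest differences among those 11 were 1.46 (SE 0.47, adjusted p = 0.102) for Rab5a and -0.83 (SE 0.34, adjusted p = 0.186) for Rab37. Rab5b had 0.37 (SE 0.10, adjusted p = 0.0724), Rab23 0.41 (SE 0.11, adjusted p = 0.0752) and Rab3b -0.51 (SE 0.15, adjusted p = 0.0911). These comparisons share their libraries with both acetate comparisons. Without inhibitor vehicle 3 the edgeR count was 3, and without DMSO vehicle 1 and inhibitor vehicle 2 it was also 3, again with no share over all genes beside it.

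Inhibitor against DMSO in vehicle cultures gave 3 Rab genes higher and 0 lower (5.56%), against 5.46% of all genes, 3.47% higher and 1.99% lower. Rab3b was at 64.9 to 82.0 CPM in DMSO vehicle and 87.3 to 120 in inhibitor vehicle, and the log2 fold was 0.52 (SE 0.11, adjusted p = 0.0207 by edgeR). Without inhibitor Rab40c was at 62.5, 62.9, 71.5 and 71.2 CPM in vehicle and 84.2, 84.6, 74.6 and 74.1 in acetate, and with it at 87.2, 84.2 and 79.8 and at 97.8, 106, 101 and 95.3. All inhibitor vehicle libraries of Rab40c were above those of DMSO vehicle, at 0.32 (SE 0.07, adjusted p = 0.0272 by edgeR). Rab34 rose by 0.28 (SE 0.08, adjusted p = 0.0453 by edgeR). The groups did not overlap for these 3, nor for 3 members that were not called, among them Rab5a at -0.92 (SE 0.35, adjusted p = 0.113 by edgeR), which makes 5 higher and 1 lower (11.1%), against 16.7% of all genes, 9.34% higher and 7.36% lower. But the count fell to 0 without DMSO vehicle 2, inhibitor vehicle 1 or inhibitor vehicle 2 and was 5 without inhibitor vehicle 3.

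In acetate cultures the inhibitor gave 4 Rab genes higher and 1 lower (9.26%), against 5.78% of all genes, 2.36% higher and 3.42% lower. Rab5b read 75.2, 76.6, 80.1 and 74.3 CPM in the DMSO vehicle libraries and 79.6, 67.4, 71.2 and 66.4 in those with acetate, and 76.6, 76.9 and 83.8 and then 90.8, 96.1, 99.7 and 94.5 with the inhibitor. Inhibitor acetate libraries, at 90.8 to 99.7, were above all others, and the log2 fold was 0.42 (SE 0.07, adjusted p = 0.00327 by edgeR). In DMSO vehicle Rab5c stood at 341, 311, 312 and 333 CPM and in DMSO acetate at 398, 409, 359 and 401, and with the inhibitor at 335, 333 and 326 in vehicle and 346, 336, 329 and 333 in acetate. Its DMSO acetate libraries, at 359 to 409, were above all others, and Rab5c was lower with the inhibitor at -0.22 (SE 0.06, adjusted p = 0.0407 by edgeR). Rab2b levels were 23.0, 28.1, 32.6 and 27.7 CPM in vehicle and 27.3, 26.0, 27.1 and 26.1 in acetate libraries of the DMSO arm, and, with the inhibitor, 33.2, 34.3 and 33.1 in vehicle and 34.3, 34.9, 33.9 and 33.5 in acetate. With the inhibitor its vehicle and acetate libraries overlapped. Without inhibitor Rab23 was at 19.3, 20.3, 21.8 and 20.8 CPM in vehicle and 18.9, 16.7, 18.3 and 16.3 in acetate, and with it at 17.0, 20.6 and 19.2 and at 22.1, 21.3, 22.1 and 20.8. Rab2b, a Golgi Rab of which 70.9% of the exon bases overlap a predicted gene on the other strand, rose by 0.36 (SE 0.08, adjusted p = 0.0233 by edgeR), Rab23 by 0.30 (SE 0.08, adjusted p = 0.0375) and Rab40c by 0.33 (SE 0.07, adjusted p = 0.0158). Groups did not overlap for these 5 and for 9 others, 10 higher and 4 lower in all (25.9%), against 21.4% of all genes, 8.96% higher and 12.4% lower. On neuronal-marker scaling 0 of these passed, and leaving out single libraries left 1 to 4, with 1 without DMSO acetate 4 or inhibitor acetate 2.

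The genes that run the Rab cycle were counted in the 2 acetate comparisons from lists of known regulators and effectors. Of all genes tested 51.2% were called without inhibitor and 35% with it. The shares were 37.5% and 12.5% for the membrane cycle and 39.4% and 30.3% for exchange factors. GTPase-activating proteins had 55.6% and 36.1%, and effectors of Rab3 and Rab27 25% in each arm. Endosomal effectors had 60% and 33.3%, late endosomal effectors 50% and 33.3%, and Golgi and secretory effectors 42.9% in each arm. The 5 phosphorylation genes had 80% and 40%. Of 8 genes of the membrane cycle 3 rose and 0 fell without inhibitor (median 0.07) and 1 rose and 0 fell with it (median -0.02); on neuronal-marker scaling 0 were higher and 7 and 6 lower. Rabac1, the prenylated Rab acceptor, rose by 0.62 (SE 0.10) and had -0.07 (SE 0.10) with the inhibitor. Rabggtb, a subunit of the prenylating enzyme, rose by 0.28 (SE 0.08) and 0.37 (SE 0.09). Of 33 exchange factors 4 rose and 9 fell without inhibitor and 4 rose and 6 fell with it (medians -0.11 and 0.01; 0 higher and 28 and 22 lower on neuronal-marker scaling). Rin2, for Rab5, fell by 1.60 (SE 0.26) and 1.45 (SE 0.27) on the log2 scale, and St5 fell by 0.79 (SE 0.11) and 0.47 (SE 0.11). Mon1a, a subunit of the exchange factor for Rab7, rose by 0.57 (SE 0.09) and had 0.24 (SE 0.10).

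Of 36 GTPase-activating proteins 11 rose and 9 fell without inhibitor and 8 rose and 5 fell with it (medians 0.13 and 0.05; 0 higher and 29 and 23 lower on neuronal-marker scaling). Tbc1d2b fell by 1.22 (SE 0.18) and 0.88 (SE 0.19), Tbc1d1 fell by 0.53 (SE 0.08) and 0.40 (SE 0.09), and Tbc1d22b rose by 0.62 (SE 0.09) and 0.43 (SE 0.10). Of 8 effectors of Rab3 and Rab27, 0 rose and 2 fell without inhibitor and 1 rose and 1 fell with it (medians -0.08 and 0.05; 0 higher and 7 and 4 lower on neuronal-marker scaling). Sytl2, which tethers secretory vesicles, fell by 1.86 (SE 0.32) and had -0.28 (SE 0.33), and Unc13d fell by 1.06 (SE 0.23) and 0.91 (SE 0.25), while the active zone gene Rims2 had 0.16 (SE 0.07) and 0.08 (SE 0.07).

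Endosomal effectors had 4 of 15 higher and 5 lower without inhibitor and 3 and 2 with it (medians -0.10 and 0.07; 0 higher and 11 and 8 lower on neuronal-marker scaling). Rabep1, which couples Rab4 and Rab5, rose by 0.86 (SE 0.14) and 0.63 (SE 0.15), Appl1 rose by 0.56 (SE 0.10) and 0.55 (SE 0.11), and Ankfy1 fell by 0.26 (SE 0.06) and had -0.03 (SE 0.07). Among 6 late endosomal effectors 1 rose and 2 fell, and 0 rose and 2 fell (medians -0.14 and -0.06; 0 higher and 6 and 5 lower on neuronal-marker scaling). Rilp, which links Rab7 to dynein, fell by 0.62 (SE 0.18) and 0.98 (SE 0.20), Plekhm1 fell by 0.56 (SE 0.12) and 0.40 (SE 0.12), and Vps41 rose by 0.21 (SE 0.08) and had 0.20 (SE 0.09). Golgi and secretory effectors had 2 of 14 higher and 4 lower, and 3 and 3 (medians -0.03 and 0.14; 1 higher and 12 and 7 lower on neuronal-marker scaling). The golgin Gcc2 rose by 1.11 (SE 0.16) and 1.05 (SE 0.17), and by 0.48 and 0.57 on neuronal-marker scaling, all of which passed. Bicd1, a dynein adaptor of Rab6, rose by 0.52 (SE 0.14) and had 0.40 (SE 0.15), and the lipid phosphatase Inpp5b fell by 0.44 (SE 0.08) and 0.29 (SE 0.09).

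Of the 5 genes of Rab phosphorylation 1 rose and 3 fell without inhibitor and 1 rose and 1 fell with it (medians -0.38 and -0.15; 0 higher and 4 and 3 lower on neuronal-marker scaling). The kinase gene Lrrk1 was at 36.9, 23.0, 18.4 and 26.4 CPM in DMSO vehicle, 7.54, 6.25, 8.24 and 6.65 with acetate, 22.3, 10.3 and 20.9 in inhibitor vehicle, and 8.62, 9.46, 7.97 and 6.61 in inhibitor acetate. The groups did not overlap, inhibitor vehicle 2 (10.3) was the closest vehicle library, and Lrrk1 fell by 1.87 (SE 0.24) and 1.13 (SE 0.25). Ppm1h, the phosphatase of phosphorylated Rabs, fell by 0.38 (SE 0.07) and had -0.15 (SE 0.08), and Rilpl1, which binds phosphorylated Rabs, rose by 0.39 (SE 0.08) and 0.23 (SE 0.08).

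With the non-neuronal score as covariate most of these lists held fewer calls. The membrane cycle genes had 0 higher and 1 lower in each arm, the GTPase-activating proteins 2 and 2 in each, and the effectors of Rab3 and Rab27 had 0 in either direction. Exchange factors had 5 higher and 3 lower without inhibitor and 2 and 2 with it. Endosomal effectors had 0 higher and 1 lower, then 2 and 0, and late endosomal effectors 0 and 0, then 0 and 1. Golgi and secretory effectors had 5 higher and 1 lower, then 3 and 0, and the phosphorylation genes 2 and 1, then 1 and 0.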

How the data were processed

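RNA of 15 libraries was counted per gene by the authors, who deposited whole-number counts for 24498 genes. STAR 2.5.2a, HTSeq 0.6.1p1, DESeq2 and the build mm10 are named, with no further detail, per the submitters' processing notes. For the annotation and the strand setting of counting, the sources used here give nothing. The 5 HTSeq summary lines, 38.9% to 47.4% of each column, entered neither library sizes nor tests.

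Genes with low counts were removed with edgeR's filterByExpr, which kept 15075 genes with 99.97% of gene counts, and libraries were scaled by TMM. The 4 group means were fitted to all libraries together with edgeR 4.0.16 (R 4.3.3) and its quasi-likelihood test, and p-values were adjusted by Benjamini-Hochberg over all genes tested. The biological coefficient of variation was 16.8%. The pipeline was also run on simulated counts, in which a small set of genes was changed up or down in DMSO acetate only. Such data cannot probe the choice between TMM and neuronal-marker scaling, and no result here rests on them. Alternatives were DESeq2 1.42.0 size factors, scaling on 12 neuronal markers, no filter, the DESeq2 test, only the groups compared, a replicate block, 2 libraries left out together, the non-neuronal score as covariate, and each library left out in turn. Counts of replicates were compared by chi-square, and no pair within a group agreed within sampling noise (4.65 to 144 per gene over 21 pairs).

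Members, roles and gene lists were chosen with earlier results of these data known. Every member is accounted for. Values in every library are given, in each comparison, for up to 8 members of highest and 8 of lowest fold among those past the threshold, and for Rab3a, Rab5a, Rab7, Rab11a and Rab27b. Up to 3 genes with the smallest p are named for each pathway list, except 1 gene that is not reported here. Positions, exon lengths and overlaps are from GENCODE vM21 (GRCm38), in which all 54 members matched by symbol, with genes sharing 50-base stretches counted, and upstream sequences are from RefSeq (GRCm38.p6).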

Additional observations from a re-analysis of the deposited data

Results flagged for a closer look

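Over 31 Rab genes and the 3 groups of 4 libraries, 93 groups were examined for a library far from the others of its group, and 8 were found by Dixon's test. Chance gives about 1 in 20. In DMSO vehicle 1, the vehicle library of this group with the lowest non-neuronal score (3.93), 4 genes stood apart. Rab26 was at 19.7 CPM there, against 4.30 to 5.47 in the other DMSO vehicle libraries. Rab7b was at 4.33 CPM, against 22.2 to 25.1. Rab31 was at 165 CPM, against 95.4 to 105, and Rab11a at 98.0 CPM, against 81.0 to 83.9. In DMSO acetate, Rab20 was at 0.328 CPM in library 3 (7 counts), against 0.104 to 0.139 in the others, Rab33a at 42.6 CPM in library 4, against 46.0 to 46.6, and Rab36 at 31.9 CPM in library 1, against 23.4 to 24.7. In inhibitor acetate 1 Rab22a was at 32.5 CPM, against 29.8 to 30.2.

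Rab23 libraries did not overlap between vehicle and acetate in either arm, and lay in opposite directions: lower with acetate without inhibitor, where the gene fell, and higher in its presence, where 0.18 (adjusted p = 0.101 by edgeR) did not pass. The difference of the responses was 0.41 (SE 0.11, adjusted p = 0.0752 by edgeR), which did not pass the threshold.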

How the results depend on the processing

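Counts of Rab genes past the threshold were recomputed under each alternative. For acetate without inhibitor (29) the count stayed within 1.5 times except with the non-neuronal score as covariate (9), and was 27 to 33 with each library left out in turn. For acetate with inhibitor (28) the covariate gave 8, and leaving out single libraries gave 17 to 35, with 17 without inhibitor vehicle 1. The difference of the responses (0) was 6 with DESeq2, 3 without DMSO vehicle 1 and inhibitor vehicle 2, 2 with the covariate and 0 to 3 with single libraries left out. It uses all groups, so it was not run on only the groups compared. The inhibitor in vehicle (3) was 1 on neuronal-marker scaling, 5 with DESeq2, 0 on only the groups compared, 8 with the covariate and 0 to 5 with single libraries left out. The inhibitor in acetate (5) was 0 on neuronal-marker scaling, 3 with no filter, 12 on only the groups compared, 12 without DMSO vehicle 1 and inhibitor vehicle 2, 8 with the covariate and 1 to 4 with single libraries left out. The shares of all genes called are not set beside these counts, so a change in a count need not be particular to the Rab genes. The cause was not tested. The replicate block gave 28 and 26 for acetate, 0 for the difference, 1 for the inhibitor in vehicle and 3 in acetate. The replicate numbers share no stated source, and deviations from the group means did not pair by number: over 21 same-numbered pairs r was -0.65 to 0.38 (median -0.10), with 6 over 0.1, against 27 of 63 differently numbered pairs.

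Among called members, 13 of 29 without and 12 of 28 with inhibitor changed sign on neuronal-marker scaling, as named above, and 2 (Rab40b and Rab7b) and 1 (Rab7b) with the covariate. Those of them among the genes chosen for each comparison (8 of highest and 8 of lowest fold, and Rab3a, Rab5a, Rab7, Rab11a and Rab27b without inhibitor), with others of that choice that were not called, are given here with values. Without inhibitor they were Rab11a (-0.18), Rab15 (-0.06), Rab27b (-0.37) and Rab7 (-0.64) on neuronal-marker scaling, Rab27b (-0.46) and Rab7b (0.67) with the covariate, and Rab7, which had 0.01, at 0.00 without DMSO vehicle 2 or 3, -0.01 without DMSO vehicle 4 and -0.02 without DMSO acetate 1 (its highest was 0.04, without DMSO acetate 4). With the inhibitor they were Rab15 (-0.01, neuronal-marker scaling) and Rab7b (0.30, covariate). Depth limits Rab20, Rab38, Rab39 and Rab27a, which had 1 to 93, 3 to 27, 8 to 32 and 9 to 36 counts per library.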
